A study of Mus musculus with 10 samples.

Results

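The genes described here are 43 genes of the lysosome and of autophagy in mouse liver. They were taken by name. Each non-control probe was named by its transcript record where RefSeq lists that record, and otherwise by its gene name in the scanner files. Older symbols were updated, and every probe so named after a listed gene was collected. This gave 79 probes, of which 73 were kept because no fewer than 4 of the 5 arrays of 1 or both genotypes showed them well above background. All 43 genes had a kept probe, and all 43 were well above background on all 10 arrays, with 0 saturated spots. They stand among 15805 genes tested. By role they are 4 lysosomal membrane proteins, 11 cathepsins and other lysosomal proteases, 9 glycosidases, 6 sphingolipid hydrolases, activators and sulfatases, and 13 autophagy genes.

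Liver RNA came from C57BL/6 mice aged 1 year, either wild type (WT) or lacking TAK1, the orphan nuclear receptor also called TR4 and encoded by Nr2c2. This receptor is unrelated to the kinase of the same name. No treatment is named for either group. The allele, its targeted exons and the cells that lack the receptor are not given in the sources used here. Each group has 5 Agilent one-colour arrays, named WT1 to WT5 and KO1 to KO5, and the sources used here do not say whether they came from separate animals, so the p-values refer to the variation among these RNA samples, which may be technical in part.

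Lysosomes are acidic organelles in which proteases, glycosidases, lipases and sulfatases break down material from endocytosis and from the cell itself. Most of these enzymes are tagged with mannose 6-phosphate in the Golgi and carried to the lysosome by receptors that bind the tag. Macroautophagy delivers cytoplasm, organelles and, in liver, lipid droplets to the lysosome in vesicles built by the ATG proteins, and transcription factors of the TFEB family bind a CACGTG-containing element near many lysosomal and autophagy genes.

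Signals are log2 values relative to the 75th percentile of each array, which ran from 950.3 to 1344 intensity units. The share of probes well above background ran from 51.0% to 62.4%. Slide 1 carried WT1 to WT4, slide 2 carried WT5 with KO1, KO2 and KO3, and KO5 and KO4 were on slides 3 and 4, so that only slide 2 held both genotypes. Slide 4 was scanned on another day than the rest. Differences within slide 2, of 3 knockout arrays against 1 wild-type array, are given beside the results. A probe of a cDNA described as the Nr2c2 product was above background on all 5 arrays of the wild type and on 0 knockout arrays, at least 5.41-fold lower in the latter, whereas of both probes named Nr2c2 1 was higher (0.44 ± 0.11, adjusted p = 0.043 over probes in limma) and the other was not called (0.36 ± 0.13, adjusted p = 0.144). Hepatocyte markers, 19 tested, were expressed as the tissue label says. They summed to between 2557 and 2799 times the 75th percentile on wild-type arrays and 2276 to 2934 on knockout arrays. Of these markers 0 passed, and differences were below 0 for 14 of the 19, with a median of -0.11, and -0.19 within slide 2. Macrophage and Kupffer cell markers summed to 101.5 to 189.8 in wild type and 94.5 to 215.3 in knockout. Of 23 tested, 2 rose, Fcgr3 (0.81 ± 0.20, adjusted p = 0.042) and Cd163 (0.91 ± 0.22, adjusted p = 0.043), and 0 fell. Differences were above 0 for 16 of the 23, with a median of 0.27, and 0.60 within slide 2. Sinusoidal endothelial markers summed to 31.9 to 44.4 in wild type and 48.8 to 74.1 in knockout. Of 14 tested, 3 rose, 0 fell and 13 had differences above 0. Among all genes tested 2.43% rose. In both lists 0 markers passed with median scaling, without the filter on dim probes, with normexp, with slide as a fixed block, within slide 2 alone and with a replicate block. Leaving out each array in turn gave 0 to 3 in either list. The part of these cells in the results below was not tested, and in whole liver fewer cells of a type and less RNA per cell cannot be told apart.

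Few lysosomal and autophagy genes changed in knockout liver, and those that did were lower than in wild type. A gene is said to have changed when its limma p, after Benjamini-Hochberg adjustment over the 15805 genes, was under 0.05. By this rule 3 of 43 fell, Arsa (-0.77 ± 0.17), Hexa (-0.53 ± 0.13) and Atg7 (-0.51 ± 0.13), as log2 differences with their standard errors, 0 rose and 40 were not called. Among all genes tested, 3.48% fell, 2.43% rose and 5.91% changed in either direction. Of the members 6.98% changed in either direction, close to the 5.91% of all genes, and all of these fell. The split over all genes, 550 lower and 384 higher, depended on the scaling, at 525 and 149 when each array's median was subtracted and 156 and 310 with no scaling. For 34 of the 40 uncalled genes the 95% interval of the difference lay inside -0.5 to 0.5 on the log2 scale. Before adjustment, 11 genes were lower and 2 higher at a p under 0.05, which is 30.2% of the members against 23.7% of all genes. The 3 genes stayed below 0 under every alternative run. However, all 3 calls were lost with slide as a fixed block, with a replicate block and with normexp background correction. They were also lost without scaling, without the filter on dim probes, and without any 1 of KO4, KO5, WT2, WT3, WT4 or WT5. That of Hexa was lost with quantile normalisation too.

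Differences were below 0 for 28 of 43 genes, 65.1% against 48.1% of all genes, and their median was -0.07 against 0.01. Without scaling between arrays these medians were 0.03 and 0.12, and with median scaling -0.17 and -0.09. The 19 hepatocyte markers had a median of -0.11, which was 0.00 without scaling and -0.21 with median scaling. In 7 of 43 genes the knockout and wild-type values did not overlap, against 9.61% of all genes, a share that was not split by direction. Of these 7, 6 were lower (Lamp1, Ctso, Hexa, Arsa, Atg7 and Atg12) and 1 was higher (Asah1). The knockout arrays also varied more. The SD was larger in knockout for 36 of 43 genes, as it was for 78.5% of all genes, and the median SD of the members was 0.11 in wild type and 0.18 in knockout. KO2 had the lowest knockout value for 22 of 43 genes, and for 32.8% of all genes. Without KO2, Arsa (-0.61, adjusted p = 0.0074) and Atg7 (-0.39, adjusted p = 0.017) remained lower and Hexa (-0.55, adjusted p = 0.052) was no longer called.

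**Figure D1:**
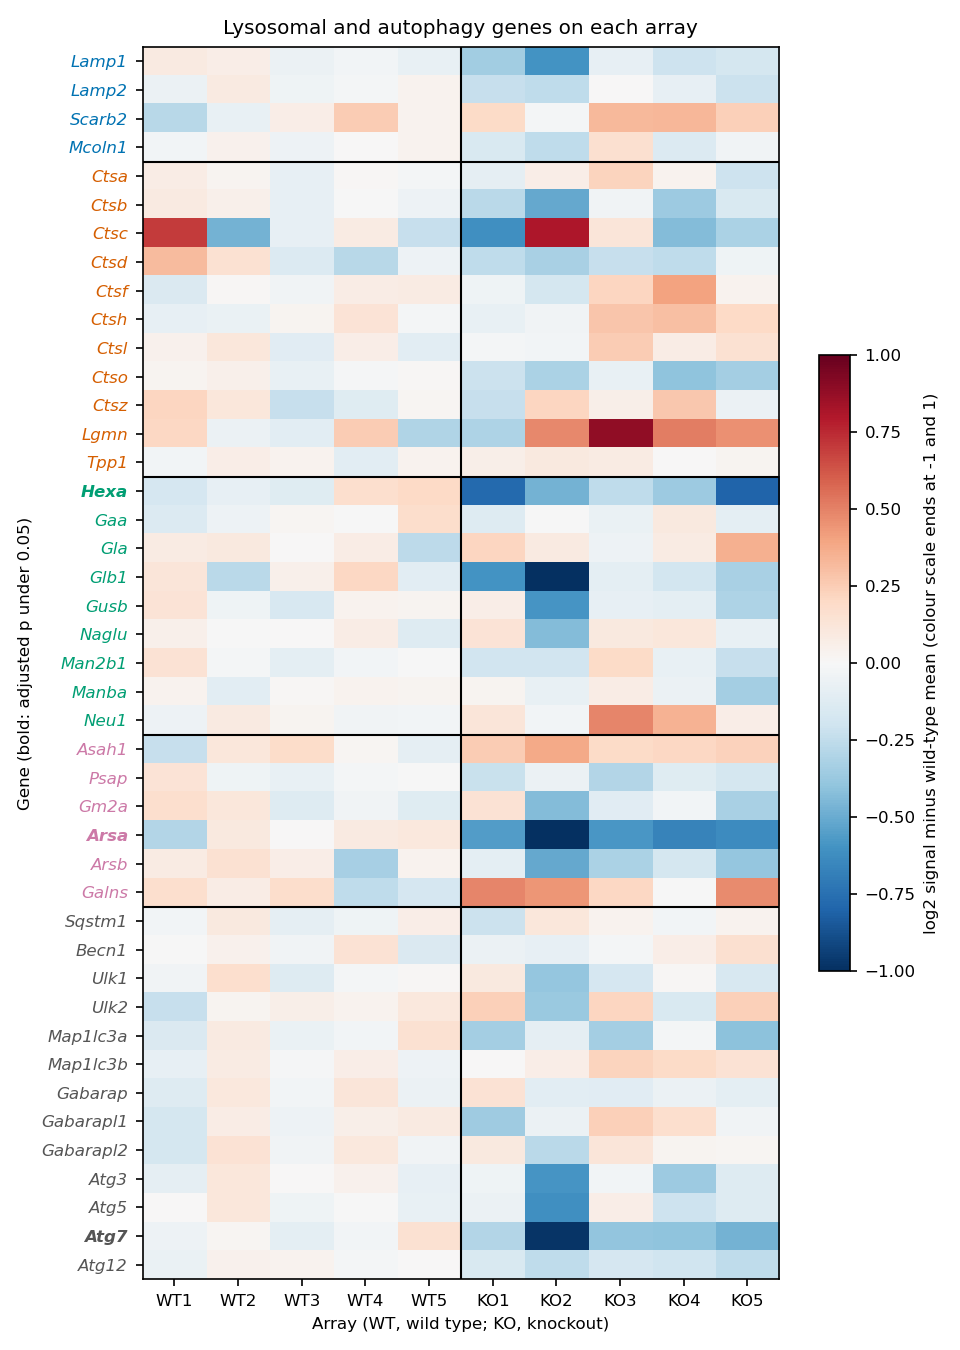
Heat map of the 43 genes (rows, grouped by role and coloured by group) on 10 arrays (columns), as log2 signal minus the wild-type mean of the gene. Arsa, Hexa and Atg7, in bold, are blue on all 5 knockout arrays, and KO2 holds the deepest blue for Arsa, Glb1 and Atg7.

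**Figure D2:**
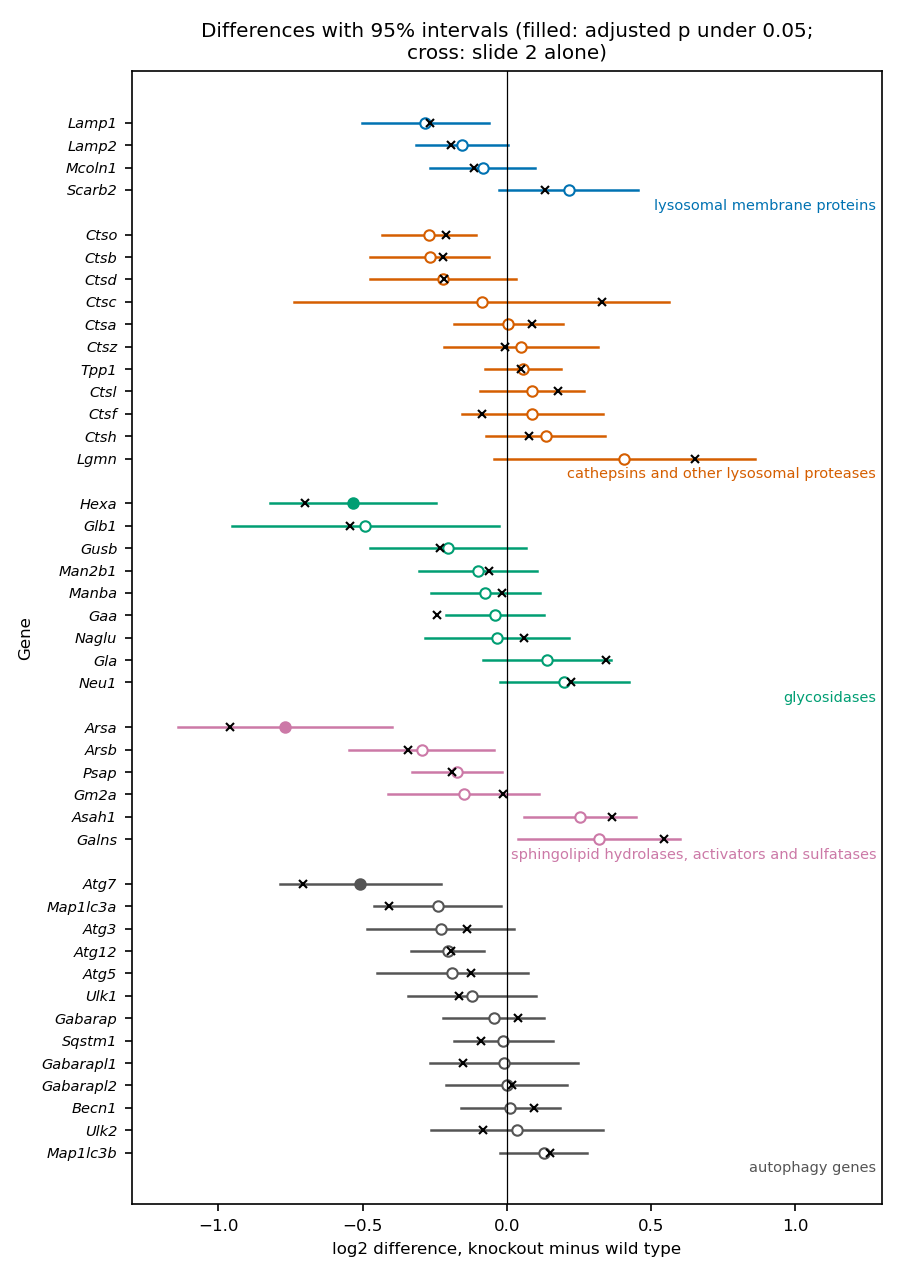
Log2 difference, knockout minus wild type (x axis), of each gene (y axis) with its 95% interval from limma over 5 arrays a group. Filled circles mark Hexa, Arsa and Atg7, which passed an adjusted p of 0.05, and crosses give the difference within slide 2, at -0.70, -0.96 and -0.71 for these 3 genes. The 1 wild-type array of slide 2, WT5, was the highest of the wild type for each of them.

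The promoters show which members carry the CACGTG element, which reads the same on both strands. RefSeq windows of 300 bases on GRCm38.p6, from 250 before to 50 after the start, were matched for 36 of 43 genes. CACGTG occurred in 15 of these 36 (41.7%) and in 8.09% of all 27025 genes with a window. The longer palindrome TCACGTGA, which contains it, occurred in 5 (13.9%), namely Mcoln1, Ctsa, Ctsd, Gla and Atg3, and in 1.12% of all genes. The median difference was -0.08 for the 15 genes with CACGTG and -0.07 for the 21 without it. Of the 3 genes that fell, Arsa and Atg7 held the letters and the window of Hexa did not. A match is a string of letters and not a measured binding site.

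The stretches below are shown because they belong to genes given in full that hold the element, which is in capitals. That of Arsa runs over all 250 bases before the start (chr15:89477425-89477674, minus strand), with CACGTG beginning 16 bases before it. In Atg7 (chr6:114670944-114670989, plus strand) it begins 132 bases before a start that the table places 28.0 kb inside the gene. Lamp1 (chr8:13159080-13159171, plus strand) has 4 copies, from 61 to 15 bases before the start, and Glb1 (chr9:114401010-114401055, plus strand) has 1, at 48 bases.
Arsa: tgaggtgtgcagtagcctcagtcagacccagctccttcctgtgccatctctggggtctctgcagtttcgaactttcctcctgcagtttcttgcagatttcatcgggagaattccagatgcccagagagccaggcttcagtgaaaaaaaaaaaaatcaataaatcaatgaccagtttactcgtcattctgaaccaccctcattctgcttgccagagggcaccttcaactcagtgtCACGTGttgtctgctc
Atg7: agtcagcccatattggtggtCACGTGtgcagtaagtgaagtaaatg
Lamp1: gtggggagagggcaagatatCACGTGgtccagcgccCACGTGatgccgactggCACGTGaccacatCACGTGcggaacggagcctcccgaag
Glb1: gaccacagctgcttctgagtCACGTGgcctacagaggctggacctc

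Of the 4 lysosomal membrane proteins 0 passed the test in limma (1, Lamp1, had an unadjusted p under 0.05), and their median difference was -0.12 (-0.15 within slide 2). Lamp1 encodes a major glycoprotein of the lysosomal membrane. Its signal was 6.25, 6.22, 6.10, 6.12 and 6.08 on WT1 to WT5 and 5.80, 5.56, 6.08, 5.95 and 5.97 on KO1 to KO5. Every knockout array was below every wild-type array, with KO3 and WT5 nearly equal and KO2 the lowest. The difference was -0.28 ± 0.10 (adjusted p = 0.126, exact permutation p = 0.0079, the smallest that 5 against 5 arrays allow) and -0.27 within slide 2.

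Lamp2, which is needed for chaperone-mediated autophagy and for fusion of autophagosomes with lysosomes, read 6.52, 6.67, 6.54, 6.56 and 6.62 in wild type. The knockout arrays read 6.35, 6.33, 6.59, 6.50 and 6.37. Only KO3 reached into the wild-type range. The difference was -0.15 ± 0.07 (adjusted p = 0.223, exact permutation p = 0.0476). Its 3 kept probes belong to different transcript records and differed by -0.15, 0.09 and -0.09. Scarb2, the receptor that carries glucocerebrosidase to the lysosome, differed by 0.21 ± 0.11, and the calcium channel gene Mcoln1 by -0.08 ± 0.08. Neither passed the test.

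Differences of the 11 proteases had both signs. They were above 0 for 7 and below 0 for 4, with a median of 0.05, although Ctsa, Ctsf, Ctsl, Ctsz and Tpp1 were below 0 with median scaling and Ctsc was above 0 without scaling. In all 0 passed the test in limma (2, both lower, had an unadjusted p under 0.05). Ctsb and Ctso, a pair of cysteine cathepsins, had the smallest p-values of the group. Ctsb read 6.57, 6.52, 6.39, 6.47 and 6.42 in wild type and 6.20, 5.97, 6.44, 6.11 and 6.32 in knockout. KO3 overlapped the wild-type range and KO2 was the lowest. The difference was -0.27 ± 0.09 (adjusted p = 0.122, exact permutation p = 0.0238), and -0.22 within slide 2. A further Ctsb probe differed by -0.07 ± 0.16.

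Ctso read 3.58, 3.61, 3.48, 3.55 and 3.57 in wild type and 3.34, 3.24, 3.48, 3.16 and 3.22 in knockout. The groups did not overlap, with KO3 and WT3 nearly equal. The difference was -0.27 ± 0.07 (adjusted p = 0.0601, exact permutation p = 0.0079) and -0.21 within slide 2. It passed without KO3 (-0.32, adjusted p = 0.030), and did not pass without any 1 of the other 9 arrays.

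The aspartic protease gene Ctsd differed by -0.22 ± 0.11 and overlapped between groups, with WT1 the highest array. Lgmn, which encodes the asparaginyl endopeptidase legumain, had the largest positive difference of all members, 0.41 ± 0.20 (adjusted p = 0.257), and 0.65 within slide 2. Without KO1 it passed (0.59, adjusted p = 0.041), and not without any other array. KO1 was below every wild-type array and the other 4 knockout arrays, from 3.57 upward, were above every one of them (3.37 at most). Ctsc, the dipeptidyl peptidase that activates granule proteases of immune cells, had the widest spread of the group, at 2.34 ± 0.44 in wild type and 2.25 ± 0.57 in knockout (SD, n = 5 each). Its difference of -0.09 became 0.33 within slide 2. The differences of the other proteases lay between 0.00 and 0.13. They are Ctsa, the protective protein of galactosidase and sialidase (0.00), Ctsz (0.05), the tripeptidyl peptidase gene Tpp1 (0.05), Ctsl (0.09), Ctsf (0.09) and Ctsh (0.13). For Ctsf and Ctsz the sign turned within slide 2 (-0.09 and -0.01).

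Among the 9 glycosidases 1 fell, 0 rose and 8 were not called, and the median difference was -0.07. Hexa encodes the alpha subunit of beta-hexosaminidase, which removes the terminal sugar of GM2 ganglioside. Its probe (NM_010421) is placed by the files at chr9:59590832-59590891 of mm7. The signal was 3.35, 3.44, 3.40, 3.69 and 3.72 on WT1 to WT5 and 2.74, 3.05, 3.26, 3.15 and 2.72 on KO1 to KO5. KO1 and KO5 were the lowest, and the highest knockout array, KO3, was below the lowest wild-type array, WT1.

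Hexa fell 1.45-fold, from 3.52 ± 0.17 to 2.98 ± 0.24 (SD, n = 5 each), a difference of -0.53 ± 0.13 (adjusted p = 0.041, exact permutation p = 0.0079). Within slide 2 it was -0.70, where the 1 wild-type array, WT5, was the highest of the wild type. The call held without KO3 (-0.60, adjusted p = 0.033) and was lost without each of the other 9 arrays, with differences of -0.58 to -0.47 and adjusted p-values of 0.052 to 0.096.

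Glb1, the lysosomal beta-galactosidase, read 0.41, 0.02, 0.35, 0.51 and 0.19 in wild type and -0.30, -0.96, 0.20, 0.12 and -0.03 in knockout. All 5 knockout arrays were below the wild-type mean, but 2 of them overlapped the wild-type range and KO2 lay far below the others. The difference was -0.49 ± 0.21 (adjusted p = 0.19, exact permutation p = 0.0397), and -0.30 without KO2. The further Glb1 probes differed by -0.35 ± 0.29 and by -0.41 ± 0.09. The second of these, of a cDNA clone listed at chr9:114057927-114057986 (mm7), passed the test over probes (adjusted p = 0.032). It ran from -1.94 to -1.70 in wild type and from -2.53 to -2.09 in knockout, with no overlap. Over all 23262 kept probes, 5.04% passed in either direction.

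The remaining glycosidases did not pass. The beta-glucuronidase gene Gusb differed by -0.20 ± 0.12, the alpha-mannosidase gene Man2b1 by -0.10 ± 0.09, and the beta-mannosidase gene Manba by -0.07 ± 0.08. Acid alpha-glucosidase, Gaa, which degrades lysosomal glycogen, differed by -0.04 ± 0.08, and Naglu, of heparan sulfate breakdown, by -0.03 ± 0.11. The alpha-galactosidase gene Gla (0.14 ± 0.10) and the sialidase gene Neu1 (0.20 ± 0.10) had positive differences, and both had positive differences within slide 2 (0.34 and 0.22).

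**Figure D3:**
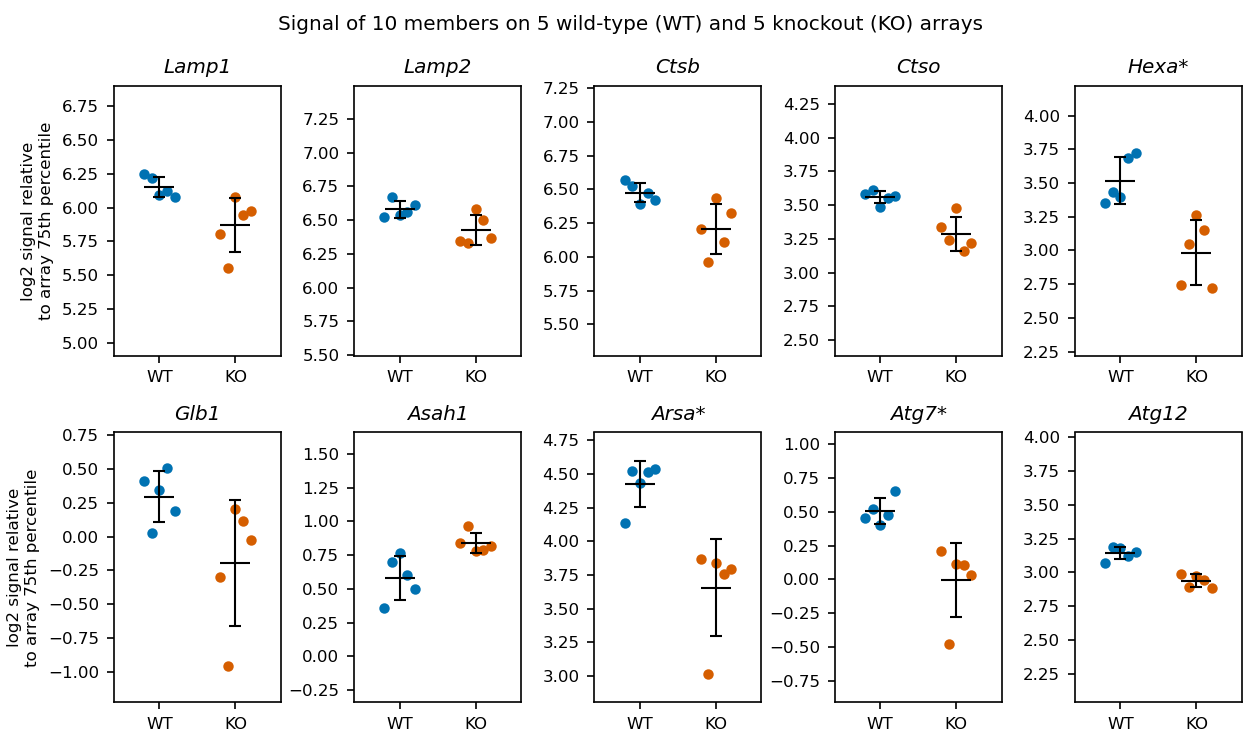
Log2 signal relative to the 75th percentile of the array (y axis) of 10 genes on 5 wild-type (blue) and 5 knockout (orange) arrays, with bars for the mean and SD. Each panel spans 2 log2 units. Genes that passed the test have an asterisk, and in Arsa and Atg7 the lowest knockout point is KO2, at 3.02 and -0.48.

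The genes for sphingolipid and sulfate ester breakdown had differences of both signs. Of 6, 1 fell, 0 rose and 5 were not called, with a median of -0.16. Arsa, which encodes arylsulfatase A, the enzyme that removes sulfate from sulfatide, had the largest decrease of all members when each is taken at its brightest probe. Its probe (NM_009713) is listed at chr15:89555513-89555572 of mm7. It read 4.13, 4.52, 4.43, 4.51 and 4.54 in wild type and 3.87, 3.02, 3.84, 3.76 and 3.80 in knockout. The groups did not overlap, KO2 was the lowest array, and the other 4 knockout arrays lay between 3.76 and 3.87.

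Arsa fell 1.71-fold, from 4.43 ± 0.17 to 3.66 ± 0.36 (SD, n = 5 each), a difference of -0.77 ± 0.17 (adjusted p = 0.0282, exact permutation p = 0.0079). It was -0.96 within slide 2, where the 1 wild-type array, WT5, was the highest of the wild type and the knockout arrays include KO2. The call held without KO1, KO2, KO3 or WT1 and was lost without KO4, KO5, WT2, WT3, WT4 or WT5, where differences ran from -0.80 to -0.74 and adjusted p-values from 0.051 to 0.078.

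Asah1, acid ceramidase, was the only member with all knockout arrays above all wild-type arrays. It read 0.35, 0.70, 0.76, 0.61 and 0.50 in wild type and 0.84, 0.96, 0.78, 0.79 and 0.82 in knockout, with KO3 just above WT3. The difference of 0.25 ± 0.09 did not pass (adjusted p = 0.118, exact permutation p = 0.0079), and was 0.37 within slide 2.

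Galns, a sulfatase of keratan and chondroitin sulfate, differed by 0.32 ± 0.13 (adjusted p = 0.164) and by 0.55 within slide 2. Arsb, the sulfatase of dermatan sulfate, differed by -0.30 ± 0.11 (adjusted p = 0.152), and a further probe by -0.35 ± 0.25. Psap, the precursor of the saposins that present sphingolipids to their hydrolases, differed by -0.17 ± 0.07 (adjusted p = 0.172), with only KO2 inside the wild-type range. The GM2 activator gene Gm2a, whose product works with beta-hexosaminidase, differed by -0.15 ± 0.12.

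Among the 13 autophagy genes 1 fell, 0 rose and 12 were not called. Of these 13 differences, 10 were below 0, and the median was -0.05, or -0.13 in slide 2. Without scaling Sqstm1, Gabarap, Gabarapl1 and Gabarapl2 were above 0 instead, and with median scaling Becn1 and Ulk2 were below it. Atg7 encodes the E1-like enzyme that activates both ATG12 and the LC3 family for conjugation. Its brightest probe (NM_028835) is listed at chr6:114802581-114802640 of mm7. It read 0.46, 0.52, 0.40, 0.48 and 0.66 in wild type and 0.21, -0.48, 0.11, 0.10 and 0.03 in knockout. All knockout arrays were below all wild-type arrays, and KO2 was far below the other 4.

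Atg7 fell 1.42-fold, from 0.50 ± 0.10 to -0.00 ± 0.27 (SD, n = 5 each), a difference of -0.51 ± 0.13 (adjusted p = 0.044, exact permutation p = 0.0079). It was -0.71 within slide 2, where the 1 wild-type array, WT5, was the highest of the wild type and the knockout arrays include KO2. The call held without KO1 or KO2 and was lost without each of the other 8 arrays (-0.54 to -0.47, adjusted p = 0.059 to 0.107). A further Atg7 probe, of a cDNA clone at chr6:114711018-114711077 (mm7), differed by -1.84 ± 0.29 (adjusted p = 0.0092 over probes) and by -1.91 within slide 2. It was detected on 5 wild-type and 4 knockout arrays, ran from -2.34 to -1.29 in wild type and from -4.08 to -2.60 in knockout, and KO2 was here the highest knockout array. Atg7 lies 22.6 Mb from the Nr2c2 probes on chromosome 6, the chromosome of the disrupted gene, and Gabarapl1 lies 37.3 Mb from them. Among other changed genes named here, the probes of M6pr (chr6:122343571-122343630) and Cd163 (chr6:124312766-124312825) are on this chromosome too (mm7).

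Atg12, the ubiquitin-like protein joined to ATG5, had the tightest values of the members given in full. It read 3.07, 3.19, 3.18, 3.12 and 3.15 in wild type and 2.99, 2.89, 2.98, 2.94 and 2.89 in knockout. The groups did not overlap. The difference of -0.21 ± 0.06 missed the threshold (adjusted p = 0.0636, exact permutation p = 0.0079), was -0.20 within slide 2, and was -0.11 and -0.08 on its other 2 probes. Its partner Atg5 differed by -0.19 ± 0.12, with KO2 the lowest array.

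Atg3, the E2-like enzyme that joins the LC3 family to lipid, differed by -0.23 ± 0.11 on its brightest probe (adjusted p = 0.254). The other Atg3 probes differed by -0.86 ± 0.23 (adjusted p = 0.058 over probes) and -0.37 ± 0.12. The LC3 and GABARAP genes, whose products coat the autophagosome membrane, had differences of both signs. Map1lc3a differed by -0.24 ± 0.10 and Map1lc3b by 0.13 ± 0.07, and a further Map1lc3b probe by 0.23 ± 0.07 (adjusted p = 0.086 over probes). Gabarap (-0.05), Gabarapl1 (-0.01) and Gabarapl2 (-0.00) were close to 0 on their brightest probes, with 95% intervals inside -0.27 to 0.25. A further Gabarapl2 probe differed by -0.28 ± 0.11 (adjusted p = 0.185 over probes).

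Sqstm1, the cargo receptor p62, was at 7.04 ± 0.08 in wild type and 7.02 ± 0.12 in knockout (SD, n = 5 each), a difference of -0.01 ± 0.08. The kinase genes Ulk1 and Ulk2, which start autophagosome formation, differed by -0.12 ± 0.10 and 0.03 ± 0.13. Becn1, a subunit of the lipid kinase complex of autophagy, differed by 0.01 ± 0.08. None of these passed the test.

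**Figure D4:**
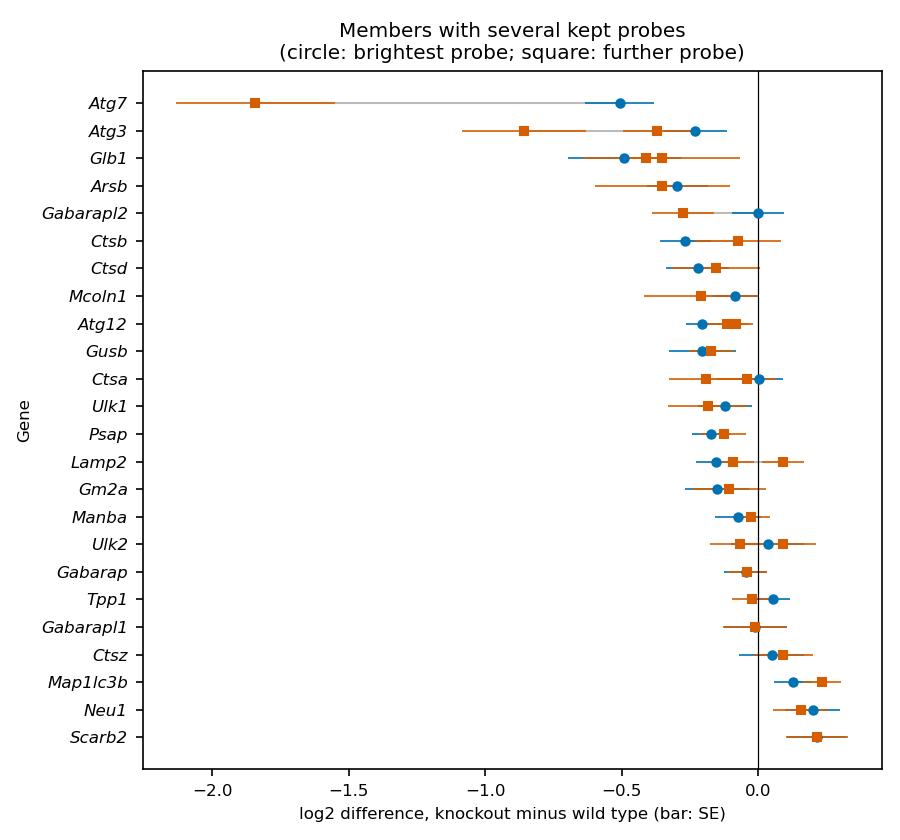
Log2 difference with its standard error (x axis) for each kept probe of the 24 genes with several kept probes (y axis). Circles are the brightest probe of a gene and squares the further probes, of which 25 of 30 share the sign of the circle. Atg7 has the widest gap, of 1.33 between -0.51 and -1.84.

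Probes of a gene mostly gave similar differences. Of 24 genes with several kept probes, 20 had all of them within 0.2 on the log2 scale and 4 had wider gaps. Atg7 was among these 4 and had the widest gap. Hexa and Arsa had no further kept probe, so their differences could not be compared between probes.

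Some other genes of the pathway changed, and all of these but Lamtor3 were lower. Their counts stand against 3.48% lower, 2.43% higher and 5.91% in either direction over all genes tested, a split that depended on the scaling. Of 30 other lysosomal hydrolases 2 fell, 0 rose and 28 were not called (median -0.03). Pla2g15, a lysosomal phospholipase, ran from 1.70 to 2.01 in wild type and from 1.12 to 1.51 in knockout and fell by 0.58 ± 0.09 on the log2 scale (adjusted p = 0.00848, -0.49 within slide 2). Pla2g15 kept its call without each of the 10 arrays.

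The mannose 6-phosphate route had 3 of 12 genes lower, 0 higher and 9 not called (median -0.13). Gga2, an adaptor that sorts the receptors at the Golgi, differed by -0.58 ± 0.10 (adjusted p = 0.0118, -0.53 within slide 2). The receptor gene M6pr ran from 3.95 to 4.07 in wild type and from 3.60 to 3.81 in knockout, a difference of -0.29 ± 0.06 (adjusted p = 0.0284, -0.23 within slide 2). Gnptab, which encodes subunits of the enzyme that makes the tag, differed by -0.32 ± 0.08 (adjusted p = 0.0467, -0.34 within slide 2). Its signal was low, with means of -2.77 in wild type and -3.09 in knockout. The Gnptab call was also lost with the mean of all kept probes, and the calls of both Gnptab and M6pr were lost with median scaling. In all 3 genes the groups did not overlap, and Gga2 passed without each of the 10 arrays. M6pr lost its call without KO4 or any 1 of the 5 wild-type arrays (-0.31 to -0.27, adjusted p = 0.054 to 0.081). Gnptab lost it without each array but KO1 and KO2 (-0.34 to -0.29, adjusted p = 0.066 to 0.122).

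In limma 0 genes passed among 18 other lysosomal membrane and lipid export proteins (median -0.07) or 17 subunits of the vacuolar ATPase (median 0.04), the pump that acidifies the lysosome. At an unadjusted p under 0.05, 2 and 0 were lower and higher among the former and 1 and 1 among the latter. The smallest p-values there belonged to the transporter gene Mfsd8 (-0.20 ± 0.09) and to Atp6v0a2 (-0.21 ± 0.08). Of 29 genes of the TFEB family and of mTORC1 control, 1 rose, Lamtor3, a subunit of the complex that anchors mTORC1 to lysosomes (0.30 ± 0.06, adjusted p = 0.027), and 0 fell. Of 48 other autophagy genes 2 fell, 0 rose and 46 were not called. They were Vps41, of a complex that tethers vesicles to lysosomes (-0.37 ± 0.06, adjusted p = 0.0136), and Atg4a, a protease that processes the LC3 family (-0.49 ± 0.11, adjusted p = 0.0293). Vps41 kept its call without each of the 10 arrays, and Atg4a lost it without each array but KO1, KO2 and KO3 (-0.51 to -0.47, adjusted p = 0.054 to 0.076). Lamtor3 lost its call without KO4, KO5, WT1, WT3, WT4 or WT5 (0.28 to 0.30, adjusted p = 0.052 to 0.066), and also with median scaling. Within slide 2, Lamtor3, Vps41 and Atg4a differed by 0.37, -0.34 and -0.38. The calls of these further genes were lost in the fit with slide as a fixed block and without scaling between arrays, and under normexp the sign of Gnptab turned (0.09).

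**Figure D5:**
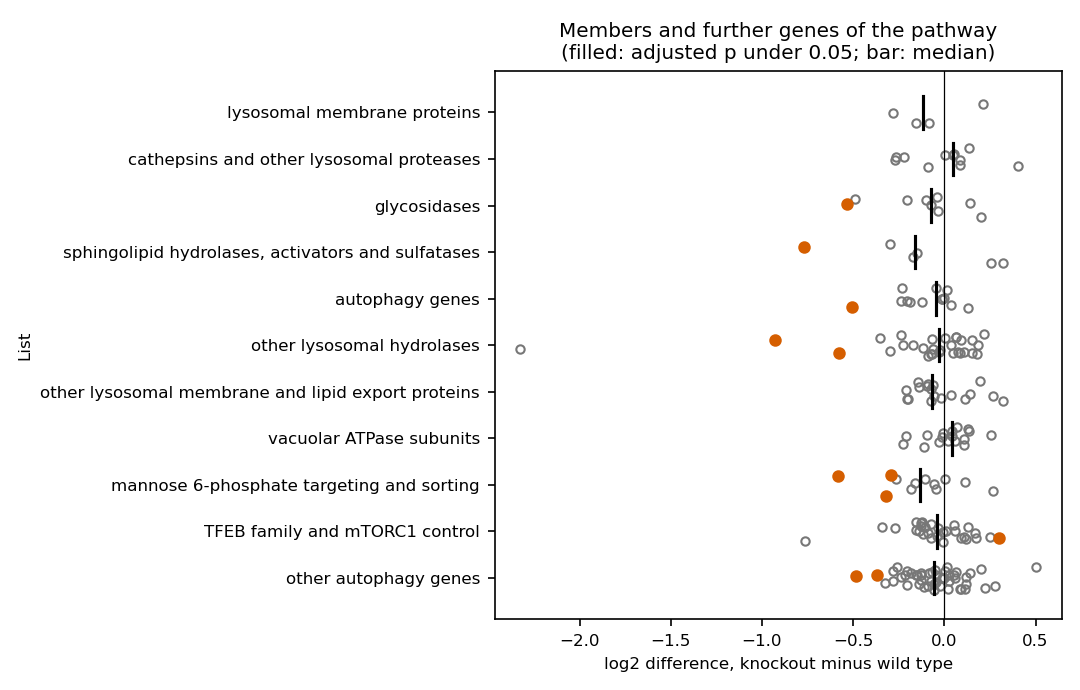
Log2 difference, knockout minus wild type (x axis), of each tested gene in the 5 groups of members and 6 further lists (y axis), with points spread vertically for legibility and a bar at the median. Filled points passed an adjusted p of 0.05, of which Lamtor3, at 0.30, is the only one above 0.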

How the data were processed

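Cy3-labelled total liver RNA was measured on one-colour Agilent mouse arrays. Per the file headers the authors used version 9.5.1.1 of Agilent Feature Extraction (the submitters' processing notes give 9.5). The deposited processed intensity is background-subtracted and detrended within an array, per the file headers, and was not scaled between arrays. Values in the deposited series table were identical to these intensities, linear and uncentred. Probe positions are those of the files (mm7) and were not placed in exons.

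Intensities were put on the log2 scale without a pseudocount and the 75th percentile of each array's non-control spots was subtracted. Outlier spots were set to missing (71 values in the fit), spots of a probe were averaged, and 23262 of 41174 probes were kept as described. For each of the 15805 genes the probe of highest mean signal was used. The comparison of genotypes used limma 3.58.1 (lmFit, then eBayes) under R 4.3.3, two-sided, and was checked on simulated data. Exact permutation tests used 5 against 5 arrays. Given in full are genes that changed and the 2 with the smallest p in each group, and up to 3 changed genes per further list, otherwise the 1 with the smallest p. The values of 1 changed gene of a further list are not reported here. Members and lists were chosen with earlier results of these data known.

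The alternatives were median, quantile or no scaling, normexp (offset 50), other filters on dim probes, the mean of a gene's probes, slide as a fixed or random block or slide 2 alone, a replicate block, array weights, and leaving out each array. The number of arrays limits the precision.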

Additional observations from a re-analysis of the deposited data

Results flagged for a closer look

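In 106 groups of 5 arrays, 1 for each genotype of the 43 members and 10 further genes named, 11 held an array far from the other 4, with a gap above 0.71 of the whole range (Dixon's 95% value), which chance alone reaches in about 1 of 20 groups. KO2 was the far array in 4 of the 11. For Arsa the log2 signal was 3.02 on KO2 against 3.76 to 3.87 on the other knockout arrays, and it was 4.13 on WT1 against 4.43 to 4.54 on the other wild-type arrays. For Atg7 it was -0.48 on KO2 against 0.03 to 0.21, for Gabarapl2 4.06 on KO2 against 4.35 to 4.45 and for Gnptab -3.33 on KO2 against -3.09 to -2.99. Gabarap stood high, at 3.65 on KO1 against 3.40 to 3.45. In wild type, Gla was at -2.33 on WT5 against -2.06 to -1.97, Manba at 1.55 on WT2 against 1.67 to 1.69, Arsb at -0.051 on WT4 against 0.32 to 0.43, Ulk2 at -0.30 on WT1 against -0.04 to 0.04 and Gga2 at 0.59 on WT3 against 0.90 to 1.01.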

How the results depend on the processing

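Hexa, Arsa and Atg7 were lower under all 22 alternatives. Their differences ran from -0.70 to -0.42, from -0.96 to -0.61 and from -1.18 to -0.39, and the calls held under 6, 10 and 8 of them. Members lower numbered 5 with array weights and with slide as a random block, which added Ctso and Atg12, so that 1 protease and 2 autophagy genes had changed. In the random-block fit the correlation within slides was below 0 (-0.090), so its further calls make no allowance for shared slide effects. With the mean of all kept probes 2 autophagy genes had changed, through Atg3, whose further probes were dim. Members lower numbered 0, as did changed glycosidases, sphingolipid genes and autophagy genes, without the filter on dim probes (27670 genes tested), without scaling, with normexp, within slide 2 alone and with slide as a fixed block. With quantile normalisation 0 glycosidases had changed. Slide 2 alone has 1 wild-type array, which is assumed to vary like the knockout arrays. Of the other lists, without the filter 1 other hydrolase and 1 mannose 6-phosphate gene had changed, with median scaling 1 and 0 genes of the mannose 6-phosphate and TFEB lists, and with array weights 3 genes of the TFEB list. Without the filter 0 TFEB-list and 0 other autophagy genes had changed. All of these lists had 0 changed genes without scaling, with normexp, within slide 2 alone and with slide as a fixed block. Members with an unadjusted p under 0.05 in limma numbered 11 without the filter, 6 without scaling, 11 with normexp, 0 within slide 2 alone and 6 with slide as a fixed block. The cause of these changes was not tested.

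Genes higher and lower over all genes numbered 149 and 525 with median scaling, 80 and 167 without the filter, 310 and 156 without scaling, 20 and 66 with normexp, 2 and 0 within slide 2 alone (701 genes had an unadjusted p under 0.05 in limma, 0 of them members), 13 and 25 with slide as a fixed block and 643 and 807 with slide as a random block.

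Leaving out each array in turn gave 113 to 535 genes higher and 184 to 655 lower, 0 to 3 members lower and 0 to 1 higher, 0 to 1 changed proteases, glycosidases, sphingolipid genes and autophagy genes, 1 to 3 other hydrolases, 1 to 3 mannose 6-phosphate genes, 0 to 2 genes of the TFEB list and 1 to 4 other autophagy genes. Without WT2 the counts over all genes were lowest.

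The labels do not state that the replicate numbers pair the arrays. Same-numbered arrays had correlations of -0.21 to 0.036 in their deviations from the group means, which gave no sign of a pairing but cannot exclude one. With a replicate block, 60 genes were higher, 106 lower and 0 members lower, with 0 changed glycosidases, sphingolipid genes, autophagy genes, other hydrolases, mannose 6-phosphate genes, TFEB-list genes and other autophagy genes, while 8 members had an unadjusted p under 0.05 in limma.

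Signs turned only for genes that had not passed, apart from Gnptab. The log2 differences were Ctsa -0.096, Ctsf -0.012, Ctsl -0.014, Ctsz -0.052, Tpp1 -0.046, Becn1 -0.088 and Ulk2 -0.066 with median scaling, Mcoln1 0.025, Ctsc 0.021, Gaa 0.068, Naglu 0.076, Man2b1 0.0092, Manba 0.035, Sqstm1 0.097, Gabarap 0.063, Gabarapl1 0.099 and Gabarapl2 0.11 without scaling, Ctsa -0.071, Ctsf -0.034, Ctsl -0.059, Ctsz -0.065, Tpp1 -0.057, Becn1 -0.10 and Gnptab 0.093 with normexp, and Gaa 0.0072, Sqstm1 0.036, Gabarap 0.0080, Gabarapl1 0.055 and Gabarapl2 0.059 with quantile normalisation. They were Ctsc 0.33, Ctsf -0.085, Ctsz -0.0062, Naglu 0.060, Ulk2 -0.081, Gabarap 0.037 and Gabarapl2 0.017 within slide 2 alone and the same with slide as a fixed block, Becn1 -0.011 with slide as a random block, Ctsa -0.036, Naglu 0.0098 and Gabarapl2 0.0083 with array weights, and Ctsa -0.077 with the mean of all kept probes. Leaving out an array gave ranges that cross 0 for Ctsa -0.049 to 0.058, Ctsc -0.31 to 0.088, Ctsz -0.0095 to 0.12, Gaa -0.075 to 0.0033, Naglu -0.076 to 0.067, Sqstm1 -0.043 to 0.039, Becn1 -0.025 to 0.049, Ulk2 -0.023 to 0.14, Gabarapl1 -0.073 to 0.077 and Gabarapl2 -0.046 to 0.065.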
